A study of Mus musculus with 9 samples.

Results

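The 33 genes described here encode the machinery that carries a cell through mitosis: the mitotic cyclins with Cdk1 and the kinases around it, the chromosomal passenger complex, centromere and outer kinetochore proteins, regulators of anaphase, proteins of the mitotic chromosome, spindle assembly factors, and the central spindle and cytokinesis proteins. They were found by their symbols in the deposited table of read counts, which gave 33 of 24421 rows. Genes of the spindle checkpoint core and the mitotic kinesins were kept out of the 33 and were counted as lists of their own. The exception is Cenpe, a kinesin-like motor that is among the 33. All 33 passed the filter on low counts in each comparison.

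The table held 9 RNA sequencing libraries of C57BL/6 mouse brain: 3 from control mice, 3 from mice given BAL101553, and 3 labelled astrocytes, whose treatment label is also BAL101553. SB28 is a mouse glioma line that carries GFP and luciferase, and BAL101553 (lisavanbulin) is the oral prodrug of BAL27862, a compound that disrupts microtubules and activates the spindle assembly checkpoint. The labels call the first 2 groups whole tissue, whereas the study's methods describe tumor cells sorted as CD45-CD11b-GFP+. By those methods treated tumors were taken later than control tumors, so treatment and time of growth cannot be told apart. For its sequencing the study's text names a different data series, and that its methods apply to these 9 libraries is assumed. Libraries of the first 2 groups are called tumor libraries below. The study's text speaks of biological replicates for its RNA sequencing, but of fewer per group than the table holds, and it names no astrocyte group. Whether each of the 3 libraries of a group came from its own mouse is not given in the sources used here, so p-values measure the spread between these libraries, which may in part be technical.

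Depth was similar in all groups, with 24540452 to 28761388 counted reads per control library, 26667789 to 34013875 per BAL101553 library, and 22919523 to 29230743 per library labelled astrocytes. Marker genes were read in CPM, the counts scaled to the size of the library, with sizes corrected for composition by TMM. In the control and BAL101553 libraries 6 oligodendrocyte markers summed to at most 20.6 CPM and the 6 T and NK cell markers to at most 0.168 CPM. Markers of other cell types were not all low there, and in each list 1 or 2 genes made up most of the sum. The 10 microglia and macrophage markers summed to 159 to 293 CPM in control and 311 to 385 CPM in BAL101553 libraries, nearly all of it Tmem119 (155 to 289 and 308 to 382 CPM), while 8 and 9 of the 10 stayed under 1 CPM and the pan-leukocyte gene Ptprc was at or below 0.337 CPM. The 6 endothelial markers, mostly Cdh5, summed to 740 to 868 CPM in control and 516 to 647 CPM in BAL101553 libraries, and 5 markers of oligodendrocyte precursors to 227 to 438 and 468 to 607 CPM. These sums did not overlap between control and treated libraries, and their part in the differences of the mitotic genes was not tested. In the libraries labelled astrocytes the 8 astrocyte markers summed to 11999 to 14749 CPM. Their sum, mostly Gja1, was 940 to 972 CPM in control and 681 to 797 CPM in BAL101553 libraries. These 2 ranges did not overlap either, and their part in the differences of the mitotic genes was not tested. The libraries labelled astrocytes also held 10282 to 12723 CPM of the oligodendrocyte markers and 526 to 1123 CPM of 10 microglia and macrophage markers.

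As background, cyclin B bound to Cdk1 drives entry into mitosis, Aurora and Polo kinases mature the centrosomes and the spindle, and the Ndc80 complex joins microtubules to the kinetochore that is built on Cenpa nucleosomes. Once all kinetochores are attached, the anaphase promoting complex (APC/C) marks securin and cyclin B for destruction, and separase then cuts cohesin. Most of these genes are transcribed in G2 and M phase, and many share a promoter design with a cell cycle homology region (CHR), the element read by the MuvB core of the DREAM and B-Myb complexes, and CCAAT boxes, which bind NF-Y. In glioma tissue their RNA is widely used as a measure of how many cells are cycling.

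The promoters are shown first because the genes have this design in common. RefSeq promoters on GRCm38.p6, which run from 250 bases upstream to 50 bases downstream of the start site, were found for 27 of the 33 genes (all but Ccna2, Incenp, Spc24, Tpx2, Dlgap5 and Cdc25c). The CHR letters TTTGAA or TTTAAA on either strand occurred in 23 of the 27 (85.2%), against 30.6% of 27025 genes with a promoter in that table. CCAAT on either strand occurred in 21 of the 27 (77.8%), against 41.1% of all genes. Both motifs were present in 20 (74.1%, against 13.4%), and neither was present in 3 (11.1%, against 41.8%), namely Nuf2, Pttg1 and Nusap1. A match of these letters is a description of the sequence and not evidence of a bound factor. For Pttg1 and Cdca8 the RefSeq start lies 270 and 2394 bases inside the GENCODE gene, so that their windows are not the upstream promoter of the longest transcript.

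The 170 bases upstream of the start site are printed for 8 genes on which the results turn, 5′ to 3′ on the strand of the gene and in lower case, with CHR and CCAAT matches on either strand in capitals. Cdk1 (chr10:69352913-69353082, minus strand), Ccnb2 (chr9:70421555-70421724, minus strand), Plk1 (chr7:122159265-122159434, plus strand) and Top2a (chr11:99024190-99024359, minus strand) hold both motifs. Cenpf (chr1:189688087-189688256, minus strand) and Mki67 (chr7:135716380-135716549, minus strand) are the 2 genes with the highest fold changes between BAL101553 and control libraries. Nuf2 (chr1:169531465-169531634, minus strand) and Anln (chr9:22389207-22389376, minus strand) are genes whose level differed least between the tumor libraries and those labelled astrocytes.
Cdk1: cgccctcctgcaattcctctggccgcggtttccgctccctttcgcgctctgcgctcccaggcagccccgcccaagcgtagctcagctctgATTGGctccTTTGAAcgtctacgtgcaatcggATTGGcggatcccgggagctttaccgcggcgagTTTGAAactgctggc
Ccnb2: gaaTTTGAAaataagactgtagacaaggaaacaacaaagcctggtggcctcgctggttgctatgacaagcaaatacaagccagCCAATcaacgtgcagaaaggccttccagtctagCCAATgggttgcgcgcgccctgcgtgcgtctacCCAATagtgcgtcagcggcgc
Plk1: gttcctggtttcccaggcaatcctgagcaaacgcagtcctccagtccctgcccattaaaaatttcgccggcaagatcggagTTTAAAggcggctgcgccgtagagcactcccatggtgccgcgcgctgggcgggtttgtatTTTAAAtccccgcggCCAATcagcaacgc
Top2a: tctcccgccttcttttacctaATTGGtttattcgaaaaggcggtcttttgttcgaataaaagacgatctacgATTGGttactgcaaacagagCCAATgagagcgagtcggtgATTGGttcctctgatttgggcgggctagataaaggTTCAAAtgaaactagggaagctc
Cenpf: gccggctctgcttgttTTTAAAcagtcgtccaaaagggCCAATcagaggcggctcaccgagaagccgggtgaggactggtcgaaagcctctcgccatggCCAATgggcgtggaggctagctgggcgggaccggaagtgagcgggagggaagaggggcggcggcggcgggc
Mki67: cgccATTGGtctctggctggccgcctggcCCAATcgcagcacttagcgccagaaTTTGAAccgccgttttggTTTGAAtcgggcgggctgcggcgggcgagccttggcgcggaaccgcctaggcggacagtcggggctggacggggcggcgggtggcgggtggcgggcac
Nuf2: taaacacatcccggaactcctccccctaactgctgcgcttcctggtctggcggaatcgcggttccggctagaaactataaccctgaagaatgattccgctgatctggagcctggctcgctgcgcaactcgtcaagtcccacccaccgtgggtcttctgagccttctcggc
Anln: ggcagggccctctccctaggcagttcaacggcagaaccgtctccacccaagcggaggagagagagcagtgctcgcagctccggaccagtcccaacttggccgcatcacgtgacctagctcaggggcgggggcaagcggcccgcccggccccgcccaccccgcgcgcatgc
In these stretches Cdk1 holds 2 CHR and 2 CCAAT matches, Ccnb2 1 and 3, Plk1 2 and 1, Top2a 1 and 4, Cenpf 1 and 2, and Mki67 2 and 2. In Ccnb2, Plk1 and Cenpf the printed CHR matches lie upstream of the printed CCAAT matches. Each of these genes has a further CHR match downstream of its start site, outside the printed stretch. Nuf2 and Anln have no capitals, and the 2 CHR matches of Anln lie downstream of its start site. Over the 27 genes there were 38 CHR matches at a median position of -1 from the start site and 56 CCAAT matches at a median position of -74.5, where negative positions are upstream and, for Prc1 and Ect2, which have overlapping promoters in the table, those of the first were used.

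**Figure D1:**
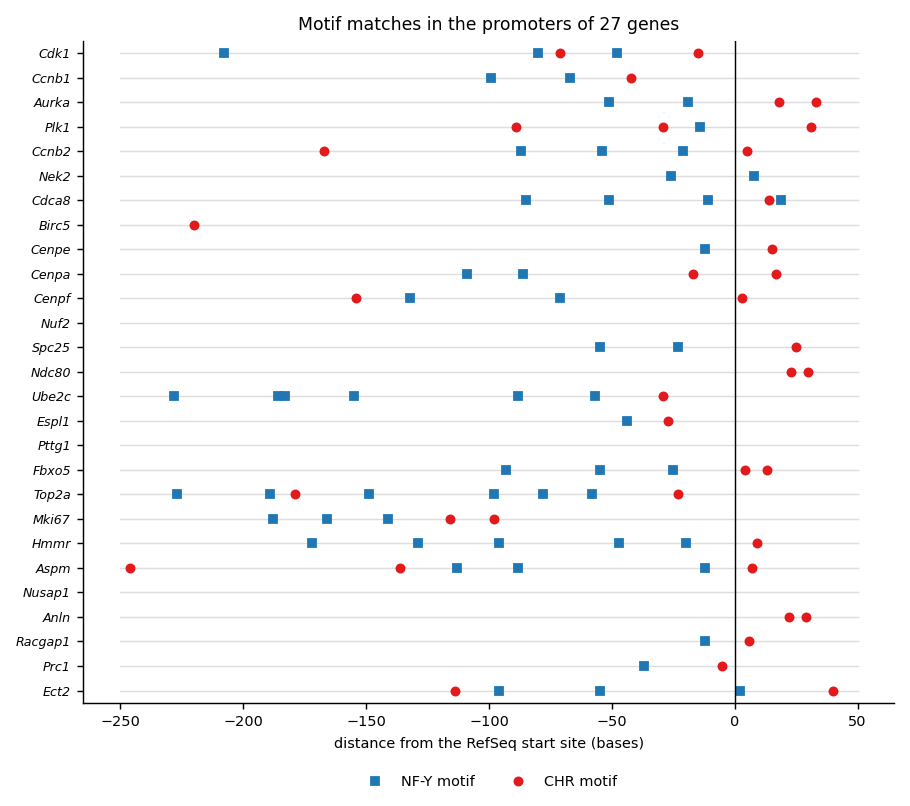
Positions of CHR (red circles) and NF-Y (CCAAT, blue squares) motif matches in the RefSeq promoters of 27 genes, in bases from the start site (black line), with the first promoter in the table for Prc1 and Ect2. CHR matches lie mostly near the start site and NF-Y matches farther upstream, at medians of -1 and -74.5 bases, and the rows of Nuf2, Pttg1 and Nusap1 are empty.

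The genes were expressed at very different levels in the tumor libraries. Between genes, levels can be compared only per length, here CPM per kilobase of the principal GENCODE transcript. In the control libraries Ube2c, the ubiquitin-conjugating enzyme of the APC/C, was highest at 127 ± 8.55 CPM per kilobase (SD, n = 3), followed by Anln, the actin and septin scaffold of the cleavage furrow, at 74.7 ± 1.90 and the centromeric histone Cenpa at 47.6 ± 2.01. Top2a, Racgap1 and Ccna2 came next at 45.6 ± 3.11, 44.8 ± 3.23 and 43.8 ± 2.08, and these 4 neighbors, Cenpa included, overlapped between libraries. The lowest were Cenpf at 3.76 ± 0.288 and Aspm at 2.63 ± 0.225, which have 2 of the longest transcripts (11130 and 9867 bases). Of the 32 pairs of neighbors in this order, 22 overlapped between libraries in the control group and 26 in the BAL101553 group. Ube2c and Anln were also the first 2 in the BAL101553 libraries, at 105 ± 9.37 and 73.1 ± 2.05 CPM per kilobase.

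**Figure D2:**
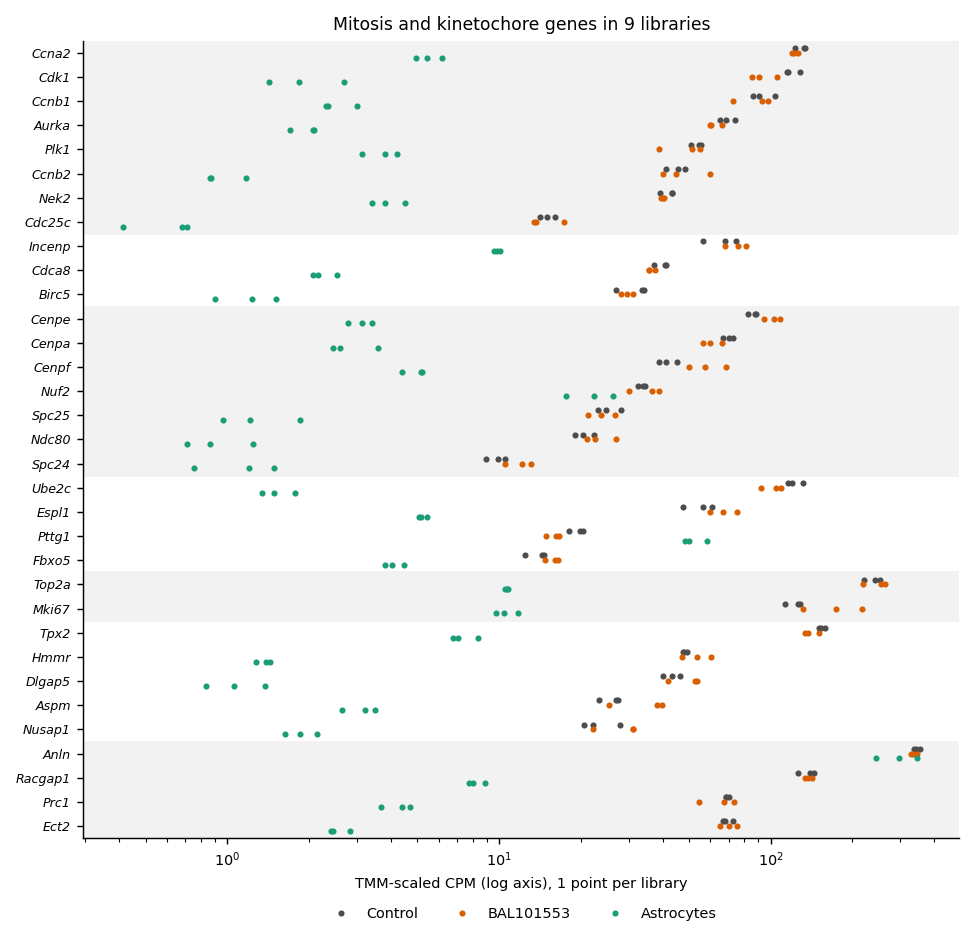
TMM-scaled CPM (log axis) of the 33 genes in 9 libraries, 1 point per library, ordered by role (shaded bands) and by control level. Control (grey) and BAL101553 (orange) points lie close together for every gene, while the libraries labelled astrocytes (green) lie far to the left except for Anln, Pttg1 and Nuf2.

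The first comparison asked whether tumor libraries from mice treated with a spindle poison held more or less mitotic RNA than those from control mice. Of the 33 genes, Cenpf alone rose and none fell: 1 of 33 (3.03%) passed an adjusted p of 0.05 (edgeR quasi-likelihood test, Benjamini-Hochberg adjusted over 12633 genes), where 14.7% of all genes tested passed, 8.64% higher and 6.09% lower. By sign 17 were higher and 16 lower, and the median log2 fold change was 0.01 against 0.02 over all genes. The 33 fitted log2 fold changes lay between -0.35 and 0.51, and all their 95% intervals lay between -0.59 and 0.91, so a change of 1 log2 unit in either direction was outside the interval of each gene. At an unadjusted p under 0.05 there were 7 of the 33, 4 higher and 3 lower, against 34.1% of all genes. In bulk RNA, fewer cells of a type and less RNA per cell cannot be told apart, and the summed level of the 33 genes was 2425 to 2525 CPM in control libraries and 2323 to 2615 CPM in BAL101553 libraries.

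**Figure D3:**
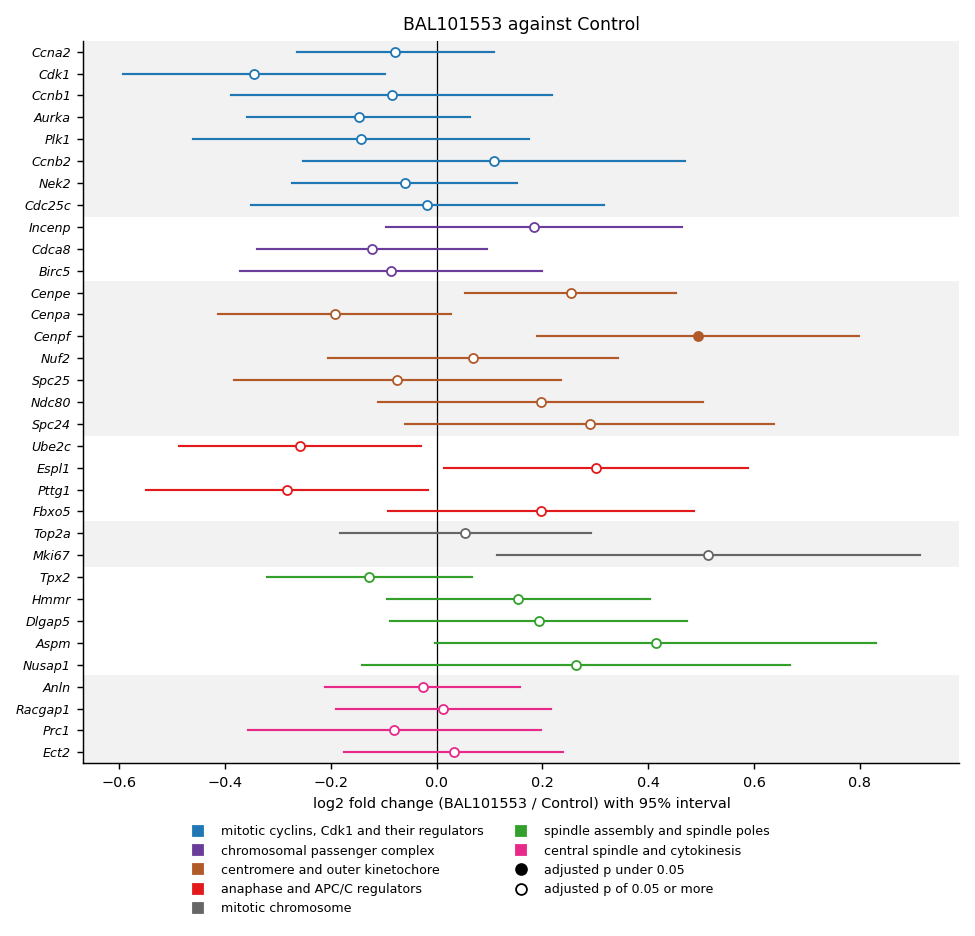
Log2 fold change of each gene between BAL101553 and control libraries (n = 3 each) with its 95% interval, colored by role; filled circles passed an adjusted p of 0.05. Cenpf is the only filled circle, and most intervals cross 0.

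Among the mitotic cyclins, Cdk1 and their regulators, 7 of 8 had a fold change below 0 and none passed the test. Cdk1, the kinase that drives mitosis (ENSMUSG00000019942.13, chromosome 10, 69335146 to 69352938, minus strand of GRCm38), was at 115, 116 and 128 CPM in the control libraries and at 90.6, 106 and 85.0 CPM in the BAL101553 libraries. The 2 groups did not overlap. Its log2 fold change was -0.35 ± 0.11 (SE), the lowest of the 33, with an edgeR adjusted p of 0.0650. Its cyclin partners gave smaller values: Ccnb1, cyclin B1, was at 90.5, 104 and 85.9 CPM in control and 72.9, 97.7 and 92.6 CPM in BAL101553 libraries (log2 fold change -0.08, 95% interval -0.39 to 0.22). Ccnb2, cyclin B2, was at 41.3, 48.3 and 45.5 CPM and then at 40.3, 59.9 and 44.9 CPM (0.11, -0.25 to 0.47), and the groups overlapped for both. Ccna2, cyclin A2, had an interval of -0.26 to 0.11.

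The kinases of this group were as close. Plk1, Polo-like kinase 1, was at 51.1, 54.6 and 55.3 CPM in control and 38.8, 55.0 and 51.5 CPM in BAL101553 libraries, with the low value in BAL101553 replicate 1. Aurka, Aurora kinase A, had a log2 fold change of -0.15 with an interval of -0.36 to 0.06, and Nek2, a centrosome kinase, one of -0.06 with an interval of -0.27 to 0.15. Cdc25c, a phosphatase that activates Cdk1, was the least expressed of the group, with 15.1 ± 0.990 CPM in control and 14.8 ± 2.16 CPM in BAL101553 libraries (SD, n = 3). The chromosomal passenger complex, which corrects faulty attachments at the centromere, likewise had no member past the test. Its scaffold Incenp had a log2 fold change of 0.18 (interval -0.10 to 0.46), survivin, Birc5, one of -0.09 (-0.37 to 0.20), and borealin, Cdca8, one of -0.12 (-0.34 to 0.09).

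The centromere and outer kinetochore group held the 1 gene past the threshold. Cenpf, a large coiled-coil protein of the outer kinetochore that accumulates in G2 (ENSMUSG00000026605.14, chromosome 1, 189640606 to 189688086, minus strand), was at 41.3, 45.2 and 38.9 CPM in control and at 49.9, 57.5 and 68.6 CPM in BAL101553 libraries. Every treated library was above every control library. The log2 fold change was 0.49 ± 0.13 (SE; 1.41-fold, 95% interval 0.19 to 0.80 on the log2 scale), with an edgeR adjusted p of 0.0441. The call did not survive the loss of a library: without any 1 control library, or without BAL101553 replicate 2 or 3, the adjusted p was 0.0638 to 0.154, and it stayed called only without BAL101553 replicate 1 (0.0359).

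Cenpe, the kinesin-like motor of the kinetochore, was at 82.3, 87.3 and 88.5 CPM in control and 94.6, 103 and 109 CPM in BAL101553 libraries, again without overlap, at an edgeR adjusted p of 0.0828. Cenpa lay the other way, at 70.1, 72.5 and 66.6 CPM and then 56.6, 66.2 and 59.6 CPM (log2 fold change -0.19, edgeR adjusted p 0.194). The 4 subunits of the Ndc80 complex, which bind each other in equal number, did not share a direction: Ndc80 had 0.20 (95% interval -0.11 to 0.50), Nuf2 0.07 (-0.21 to 0.34), Spc24 0.29 (-0.06 to 0.64) and Spc25 -0.07 (-0.38 to 0.23). None of the 4 passed the test. Spc24 had the fewest reads of any of the 33 genes in the tumor libraries, 221 to 356 per library.

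The regulators of anaphase split. Ube2c was at 120, 115 and 132 CPM in control and at 91.8, 105 and 109 CPM in BAL101553 libraries, and its target securin, Pttg1, at 18.0, 20.4 and 19.8 CPM and then 16.1, 14.8 and 16.7 CPM. Both were lower in every treated library, with log2 fold changes of -0.26 and -0.28, and neither passed (edgeR adjusted p 0.111 and 0.128). Separase, Espl1, which securin holds in check, was at 47.4, 60.6 and 56.4 CPM in control and 67.0, 59.6 and 75.4 CPM in BAL101553 libraries (0.30, edgeR adjusted p 0.132), and the groups overlapped. Fbxo5 (Emi1), the inhibitor of the APC/C, had 12.5, 14.6 and 14.4 CPM against 14.8, 16.1 and 16.5 CPM, a log2 fold change of 0.20 with an interval of -0.09 to 0.49.

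On the mitotic chromosome, Mki67 had the largest fold change of the 33 without passing the test. It encodes Ki-67, the coat protein of mitotic chromosomes that pathologists stain to count cycling cells (ENSMUSG00000031004.8, chromosome 7, 135689784 to 135716361, minus strand). Its level was 126, 113 and 129 CPM in control and 131, 217 and 174 CPM in BAL101553 libraries, so that the groups did not overlap but the treated libraries spread widely (coefficient of variation 24.6%, the highest of the 33 in that group, against 6.70% in control). The log2 fold change was 0.51 ± 0.17 (SE) with an edgeR adjusted p of 0.0813. Top2a, topoisomerase II alpha, which untangles sister chromatids, was at 221, 253 and 241 CPM in control and 220, 256 and 264 CPM in BAL101553 libraries, a log2 fold change of 0.05 with an interval of -0.18 to 0.29.

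Of the 5 spindle assembly genes 4 had fold changes above 0 and none passed. Aspm, a spindle pole protein of neural progenitors, was at 26.9, 27.5 and 23.4 CPM in control and 25.3, 39.9 and 38.1 CPM in BAL101553 libraries, with replicate 1 of the treated libraries inside the control range (log2 fold change 0.41, edgeR adjusted p 0.149). Nusap1, Dlgap5 (HURP) and Hmmr (RHAMM), which bundle or bind spindle microtubules, had 0.26, 0.19 and 0.15. Tpx2, which activates Aurora kinase A on the spindle, had -0.13 with an interval of -0.32 to 0.07. The central spindle and cytokinesis genes were the closest to 0: Anln was at 336, 353 and 342 CPM in control and 347, 333 and 329 CPM in BAL101553 libraries. Racgap1, Ect2 and Prc1, which place and activate the contractile ring, had log2 fold changes of 0.01, 0.03 and -0.08 with intervals between -0.36 and 0.24.

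Counted by overlap alone, 9 of the 33 genes had treated libraries entirely above or below the control libraries, where 39.7% of all genes did (20.1% higher and 19.6% lower). Spc24, Cenpe, Cenpf, Mki67 and Fbxo5 were above, and Cdk1, Cenpa, Pttg1 and Ube2c below. The number of members called ranged from 0 to 3 over 25 alternatives, and Cenpf was not in every set. With the replicate number as a block 0 were called, where 10.9% of all genes were, and Cenpf had an edgeR adjusted p of 0.0718. DESeq2 called 3 (Cdk1, Cenpf and Mki67) where it called 22.4% of all genes, the fit with all 9 libraries called Cenpf and Mki67 (19.6% of all genes), and library totals in place of TMM called Cenpe, Cenpf and Mki67 (14.9%).

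The treated libraries differed among themselves over the 33 genes. BAL101553 replicate 1 was the lowest of its group for 23 of the 33 genes (69.7%), where it was the lowest for 30.5% of 12633 genes, and replicate 3 was the highest for 22 (66.7%), against 34% of all genes. Set against the mean of the control libraries, the median log2 difference of the 33 genes was -0.11 in replicate 1, 0.05 in replicate 2 and 0.09 in replicate 3, while the median over all genes was 0.01, -0.01 and 0.02. In the control libraries replicate 1 was the lowest for 14 genes, replicate 2 for 10 and replicate 3 for 9. The median coefficient of variation of the 33 genes was 6.70% in control and 11.2% in BAL101553 libraries; the difference was not tested. The treated libraries thus ranged from slightly below to slightly above the controls in summed mitotic RNA, at 2323, 2596 and 2615 CPM.

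The fold changes moved with transcript length. Over the 33 genes, log2 fold change and log2 transcript length had a Pearson correlation of 0.61 (Spearman 0.49), as a description over genes measured in the same 6 libraries; over 12550 genes with a length the values were 0.12 and 0.23. Among the 16 shorter genes (947 to 2960 bases) 6 had fold changes above 0, and among the 17 longer ones (2964 to 11130 bases) 11 did. Of the 5 longest transcripts, those of Mki67, Cenpf, Aspm and Espl1 had the 4 highest log2 fold changes, and Cenpe came seventh. Over all genes the median log2 fold change went from -0.19 for the shortest of 10 length bins to 0.22 for the longest.

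With the length trend of each library removed, an alternative chosen after the data were seen, the log2 fold change of Cenpf was 0.22 (edgeR adjusted p 0.282), that of Mki67 0.25 (0.368) and that of Cdk1 -0.41 (0.0480). In that fit Cdk1 was the 1 member called, where 11.6% of all genes were. The transcript of Cdk1 is 4375 bases. Whether the length trend is of the RNA or of the libraries was not tested.

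**Figure D4:**
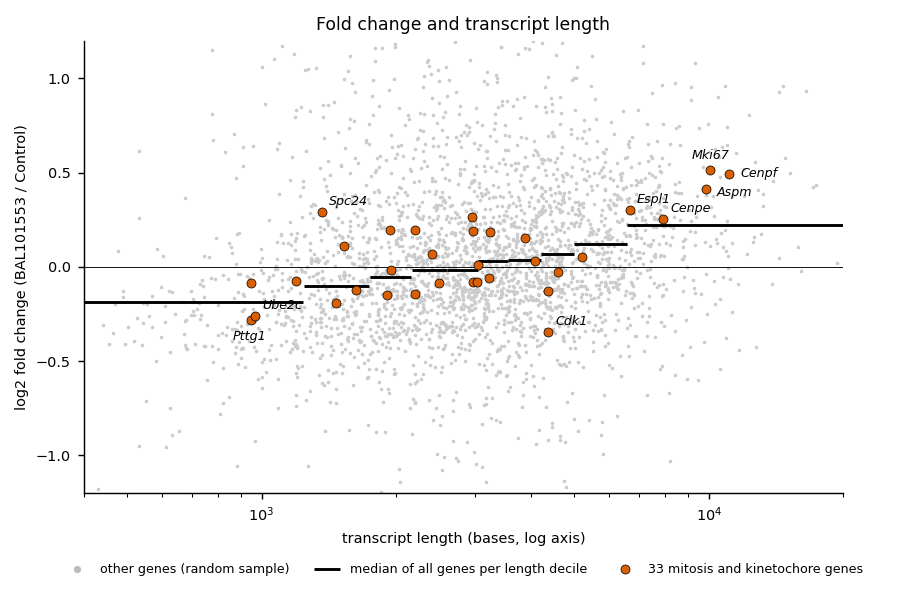
Log2 fold change between BAL101553 and control libraries against transcript length (log axis) for the 33 genes (orange) and a random sample of other genes (grey, values within the axis only). Black bars give the median of all genes in each of 10 length bins, from -0.19 to 0.22, and the longest mitotic transcripts lie above the bar of their bin.

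Other genes of the same processes, taken from lists that were chosen with earlier results of these data known, gave 11 calls among 172 genes between BAL101553 and control libraries (6.4%; 7 higher, 4.07%, and 4 lower, 2.33%), where 14.7% of all genes passed (8.64% higher and 6.09% lower). Most of these calls rest on all 6 libraries: without any 1 library, 1 to 9 list genes were called. Of 16 genes listed for the spindle assembly checkpoint, the machinery that the drug activates, 1 rose and 1 fell. Bub1b (BubR1) went from 65.1, 73.5 and 71.0 to 80.8, 89.9 and 98.8 CPM, a log2 fold change of 0.37 (edgeR adjusted p 0.0465). Bub3 went from 88.0, 89.3 and 88.1 to 65.3, 74.3 and 71.0 CPM, a log2 fold change of -0.33 (edgeR adjusted p 0.0408). Each kept its call in 1 of the 6 fits without 1 library. None of 12 mitotic kinesins and none of 16 genes of the MuvB, DREAM, B-Myb and FoxM1 group passed. Of 29 other centromere and kinetochore genes Hjurp, the Cenpa chaperone, rose from 4.89, 6.93 and 5.85 to 9.82, 11.7 and 11.3 CPM (log2 fold change 0.89), and was called in 3 of the 6 fits without 1 library. Its client Cenpa had a fold change below 0, as given above.

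Of 37 other spindle, cytokinesis and G2/M genes 2 rose and none fell. Cdc25b, a phosphatase that activates Cdk1, was at 57.9, 61.8 and 55.9 CPM in control and 97.7, 92.1 and 96.3 CPM in BAL101553 libraries (log2 fold change 0.71) and was called in all 6 fits without 1 library. Pkmyt1, a kinase that inhibits Cdk1, had a log2 fold change of 0.63. Of 16 APC/C genes 2 fell, the subunit Anapc15 (-0.51) and the ubiquitin-conjugating enzyme Ube2s (-0.45). Condensin and cohesin genes gave 3 rises of 18, in Ncapg2 (0.63), Nipbl (0.39) and Pds5b (0.39), and replication genes 1 fall of 28, in Gins2 (-0.45). Without 1 library, Anapc15 and Gins2 were called in 0 of the 6 fits, Pkmyt1, Ube2s and Pds5b in 1, Nipbl in 2 and Ncapg2 in 4. Pkmyt1, Ube2s, Nipbl and Pds5b are named because the counts are small, after their values were seen. The median log2 fold change of these 8 lists lay between -0.19 and 0.14, beside 0.02 for all genes.

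The second comparison set the libraries labelled astrocytes against the BAL101553 libraries, which carry the same treatment label. Mitotic RNA was far lower in the libraries labelled astrocytes: 31 of the 33 genes fell, 1 rose and 1 did not pass (edgeR quasi-likelihood test, adjusted p under 0.05). Of all 15314 genes tested 85.1% passed, so that a call in either direction (97% of the 33) sets these genes little apart from the rest. Direction and size differed: 93.9% of the 33 were called lower and 3.03% higher, against 38.9% and 46.3% of all genes. The median log2 fold change was -4.13, a 17.5-fold fall, against 0.18 over all genes. Summed over the 33 genes the level was 444 to 517 CPM. These libraries held 12 to 10001 reads per member, and none was at 0.

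**Figure D5:**
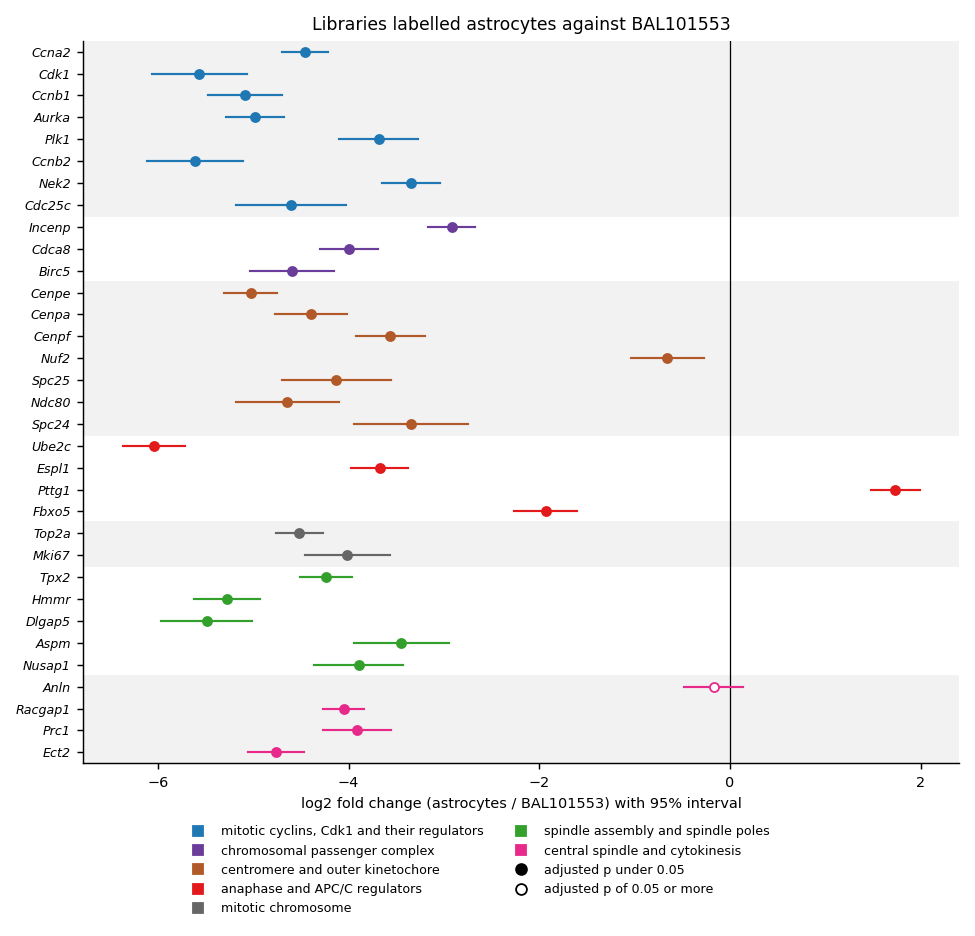
Log2 fold change of each gene between the libraries labelled astrocytes and the BAL101553 libraries (n = 3 each) with its 95% interval, colored by role; filled circles passed an adjusted p of 0.05. Most genes lie below -2.9, Nuf2 and Fbxo5 lie nearer to 0, Anln is not filled, and Pttg1 lies above 0.

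The falls were deep in every role. Ube2c had the largest, from 91.8, 105 and 109 CPM to 1.48, 1.35 and 1.77 CPM, a log2 fold change of -6.04 ± 0.14 (SE; 65.8-fold; edgeR adjusted p 1.57e-08), and 22.8% of its exon bases lie opposite an exon of Tnnc2. Cdk1 fell to 1.42, 1.83 and 2.68 CPM (-5.57), Ccnb2 to 1.17, 0.862 and 0.868 CPM (-5.61) and Dlgap5 to 0.832, 1.38 and 1.06 CPM (-5.49). All 8 cyclin, Cdk1 and regulator genes fell, with log2 fold changes of -3.35 to -5.61, and all 5 spindle assembly genes did, at -3.45 to -5.49. Top2a and Mki67 fell to 10.5 to 10.8 and 9.74 to 11.8 CPM, with log2 fold changes of -4.52 and -4.01. The chromosomal passenger genes fell by less for Incenp (-2.92, to 9.80, 10.1 and 9.59 CPM) than for Birc5 (-4.59) and Cdca8 (-4.0), and the 95% interval of Incenp, -3.16 to -2.67, did not reach those of the other 2.

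Nuf2 and its partners came apart. Nuf2 (ENSMUSG00000026683.14, chromosome 1, 169497934 to 169531464, minus strand) was at 30.2, 36.5 and 38.8 CPM in BAL101553 libraries and at 22.3, 17.6 and 26.3 CPM in those labelled astrocytes, a log2 fold change of -0.66 ± 0.16 (edgeR adjusted p 0.00565). The other 3 subunits of the complex were near 1 CPM there: Ndc80 at 0.709, 0.862 and 1.25 CPM, Spc24 at 1.2, 1.48 and 0.755 CPM, and Spc25 at 1.85, 0.966 and 1.21 CPM. Their log2 fold changes were -4.64, -3.35 and -4.13, and the interval of Nuf2, -1.04 to -0.28, lay apart from all 3. Per kilobase Nuf2 was at 9.18 ± 1.81 CPM in these libraries against 0.427 ± 0.126 for Ndc80, while in control libraries they were at 14.0 ± 0.455 and 9.37 ± 0.760 (SD, n = 3).

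Pttg1 was the only one of the 33 genes that rose. Securin (ENSMUSG00000020415.16, chromosome 11, 43420250 to 43426251, minus strand) was at 16.1, 14.8 and 16.7 CPM in BAL101553 libraries and at 50.2, 48.3 and 58.2 CPM in those labelled astrocytes, with no overlap (log2 fold change 1.73 ± 0.11, 3.32-fold; edgeR adjusted p 2.00e-06). Espl1, the separase it inhibits, fell in the same comparison from 67.0, 59.6 and 75.4 to 5.43, 5.17 and 5.06 CPM (-3.67). Fbxo5 fell less than most, from 14.8, 16.1 and 16.5 to 3.79, 4.04 and 4.45 CPM (-1.93 ± 0.14), and kept 25.9% of its level in BAL101553 libraries.

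Anln (ENSMUSG00000036777.8, chromosome 9, 22332012 to 22389188, minus strand) did not pass. It was at 347, 333 and 329 CPM in BAL101553 libraries and at 298, 345 and 243 CPM in those labelled astrocytes, a log2 fold change of -0.17 with a 95% interval of -0.48 to 0.14 (edgeR adjusted p 0.251), and its sign turned with other scalings. Besides its place in the cleavage furrow, anillin is known from the septin scaffold of myelin. Of the summed level of the 33 genes it made up 54.8% to 66.7% in the libraries labelled astrocytes and 12.6% to 14.9% in the tumor libraries. Without Anln, Pttg1 and Nuf2, which were set aside after their values were seen, the other 30 genes summed to 106 to 116 CPM, against 1930 to 2231 CPM in BAL101553 libraries. The oligodendrocyte markers, which include Mbp, summed to 10282 to 12723 CPM in the same libraries and to at most 18.9 CPM in BAL101553 libraries. Their part in the level of Anln, Pttg1 or Nuf2 was not tested.

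The order of levels per kilobase changed accordingly. In the libraries labelled astrocytes Anln came first at 64.1 ± 11.1 CPM per kilobase and Pttg1 next at 55.1 ± 5.56 (SD, n = 3), and the 2 overlapped; Nuf2 followed, apart from both, and then Incenp at 3.04 ± 0.0805 and Racgap1 at 2.69 ± 0.188. Ube2c, first in the tumor libraries, was at 1.59 ± 0.227. The 3 genes with no CHR or CCAAT match in the promoter window were Nuf2, Pttg1 and Nusap1, and of these Nusap1 fell with the others, from 22.2, 31.2 and 31.2 to 1.63, 2.14 and 1.85 CPM (log2 fold change -3.89).

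Against the control libraries the libraries labelled astrocytes gave like values, and this comparison shares its astrocyte libraries with the one before. Again 31 genes fell and Pttg1 rose (log2 fold change 1.43), where 88.3% of 15207 genes passed, 48.8% higher and 39.5% lower. The median of the 33 was -4.21, against 0.25 over all genes. Ube2c was at -6.31, Nuf2 at -0.60, Fbxo5 at -1.75 and Anln at -0.21, the last with an edgeR adjusted p of 0.133.

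The other lists of the pathway showed which mitotic genes were low in the libraries labelled astrocytes, always against 38.9% lower and 46.3% higher over all genes. All 12 mitotic kinesins fell, with Kif20a the deepest (from 101, 105 and 129 to 2.25, 2.17 and 2.72 CPM, log2 fold change -5.54). Of 16 genes on the checkpoint list 14 fell, Bub1 the most (-5.32), Mad2l2 rose (1.10) and Bub3 did not pass (0.01 ± 0.08). Of 29 other centromere and kinetochore genes 28 fell, Ska1 the most (-5.13, to 0.154, 0.103 and 0.340 CPM), and Itgb3bp rose (1.22). Of 37 other spindle, cytokinesis and G2/M genes 35 fell and none rose. Cdkn3 had -6.77, from 6.09, 11.1 and 6.71 to 0.123, 0.0345 and 0.0377 CPM. Ska1 and Cdkn3 were near the floor in the libraries labelled astrocytes and passed the low-count filter through the BAL101553 libraries. The size of their falls is therefore uncertain. Replication genes fell in 27 of 28, with Tk1 at -5.06, and condensin and cohesin genes in 16 of 18, with Ncapg at -5.00.

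The APC/C and the MuvB group were mixed. Of 16 APC/C genes 11 fell, Ube2s the most (-1.93), and 4 rose, Anapc13 the most (0.58), with a median of -0.37. Of 16 genes of the MuvB, DREAM, B-Myb and FoxM1 group 10 fell and 4 rose: Foxm1, the transcription factor of G2/M genes, went from 94.4, 94.5 and 102 to 6.32, 4.76 and 5.74 CPM (-4.10), and Lin52, a MuvB subunit, from 9.44, 10.3 and 10.6 to 33.9, 31 and 33.6 CPM (1.71). The median of this group was -0.52, against -4.30 for the kinesins and -4.32 for the checkpoint genes.

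Some members share exon bases with other genes in GENCODE, which limits their counts: 9 do, over 1.35% to 22.8% of their exon bases, 8 of them with a gene on the opposite strand. The study's methods describe a stranded protocol, which is assumed to hold for these libraries. Whether the counting used the strand is not given in the sources used here. Plk1, Ccna2, Cdca8, Ube2c, Prc1, Nek2, Nusap1 and Cdc25c have such a gene opposite, and Top2a holds a small RNA gene on its own strand.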

How the data were processed

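The study's methods describe a stranded RNA protocol for its sorted tumor cells. That it holds for the 9 libraries here, those labelled astrocytes included, is assumed. By the labels the authors aligned reads with TopHat to mm10 and used HTSeq 0.6.1. The study's methods name featureCounts beside HTSeq. Whether featureCounts had a part in the table is not given in the sources used here. The authors deposited whole-number read counts per gene, without normalization, in 24421 rows for 9 libraries of 3 groups. Samples were grouped by their labels.

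R 4.3.3 and edgeR 4.0.16 were used. For each comparison, genes were filtered with filterByExpr, libraries scaled by TMM, and groups compared with the two-sided quasi-likelihood test and Benjamini-Hochberg adjustment over all genes tested, at a threshold of 0.05. Levels are CPM scaled by TMM over all 9 libraries. The SE of a log2 fold change was obtained from its F statistic, and intervals are 95%. Taken over all genes counted in a pair of replicates, the spread exceeded counting error (chi-square per degree of freedom 14.3 to 64.9), and no 2 libraries agreed within sampling noise. This measure was not computed for the members alone. Counting error may be a large part of the spread of members with few reads, such as Cdc25c with 23, 12 and 18 in the libraries labelled astrocytes. Gene positions and transcript lengths were read from GENCODE vM21 (GRCm38, the same assembly as mm10), in which 23350 rows matched by symbol and 667 by another symbol. Promoters came from RefSeq (GRCm38.p6).

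The members and the lists were chosen with earlier results of these data known. Named genes were all 33 members and, from each list, the gene with the largest called rise and the one with the largest called fall, if no library of one group lay within the range of the other. Alternatives were DESeq2 1.42.0, limma-trend (limma 3.58.1), other scalings, a looser and a stricter low-count filter (1 count somewhere, or 10 in each library), a joint model of the 9 libraries, the replicate number as a block, and fits without 1 library or without 1 of each group. Removal of the length trend and the counts of list genes under the alternatives were added after the data were seen. The test was also run on counts simulated from edgeR's own fitted model, and no result here rests on that run.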

Additional observations from a re-analysis of the deposited data

How the results depend on the processing

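Between the libraries labelled astrocytes and the BAL101553 libraries, 31 or 32 of the 33 genes were called in all alternatives run; Nuf2 lost its call (edgeR adjusted p 0.0519) without BAL101553 replicate 3 and astrocyte replicate 1. The median log2 fold change of the 33 moved to -3.93 with library totals, -3.95 with upper quartile scaling and -3.90 with at least 10 counts in every library, from -4.13; these scalings moved the median of all genes by 0.20 and 0.18. The sign of Anln turned in the same 3 fits (0.031, 0.0070 and 0.052). Between BAL101553 and control libraries, 3 members were called with DESeq2 (2832 genes in all), 3 with library totals, 2 with all 9 libraries in one model (3022 genes) and 0 with the replicate block (edgeR adjusted p of Cenpf 0.0718). Members called ranged from 0 to 3 without 1 library or 1 of each group, genes called from 1 to 1757, and genes of the 8 lists called from 0 to 10, where all libraries gave 1, 1860 and 11. Without control replicate 1, control replicate 3 or BAL101553 replicate 3, 458, 193 and 668 genes were called; fewer samples take part in these fits. Genes of the lists called were 7 with at least 1 count in any library, 7 with the length trend removed and 6 with the replicate block. Cenpf had an edgeR, limma or DESeq2 adjusted p of 0.0114 to 0.304 and log2 fold changes of 0.22 to 0.65 over 25 alternatives. Library totals raised the median of all genes by 0.09, moved calls from 58.7% to 77.4% higher, and turned Ccna2 (0.0079), Spc25 (0.015), Prc1 (0.0050), Nek2 (0.025), Anln (0.059) and Cdc25c (0.072). The length fit turned Birc5 (0.093), Spc25 (0.059), Top2a (-0.047), Ect2 (-0.017) and Cdc25c (0.031). Fits without libraries turned genes close to 0, with ranges of -0.065 to 0.0036 for Anln, -0.24 to 0.0049 for Birc5, -0.23 to 0.11 for Ccnb1, -0.13 to 0.27 for Ccnb2, -0.20 to 0.095 for Cdc25c, -0.037 to 0.11 for Ect2, -0.040 to 0.19 for Nuf2, -0.28 to 0.012 for Plk1, -0.20 to 0.044 for Prc1, -0.068 to 0.076 for Racgap1, -0.23 to 0.084 for Spc25 and -0.043 to 0.17 for Top2a. The cause of these moves was not tested. Whether the replicate numbers pair control and BAL101553 libraries is not settled by these data. Same numbers correlated at 0.15, -0.01 and 0.15, and control replicate 2 was closest to BAL101553 replicate 3. BAL101553 and astrocyte libraries of the same number correlated at 0.00, 0.07 and 0.07. Astrocyte replicate 1 was closer to BAL101553 replicate 3 (0.0069) than to replicate 1 (0.0020), so pairing is not settled there either. The block left 1371 and 12815 genes called in the 2 comparisons and changed no other member's call. Counts of 12 to 10001 reads per member limit the libraries labelled astrocytes most.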
